A study of Homo sapiens with 6 samples.

Results

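The genes examined here encode oxysterol-binding proteins: OSBP and 9 OSBP-like proteins, OSBPL1A, OSBPL2, OSBPL3, OSBPL5, OSBPL6, OSBPL8, OSBPL9, OSBPL10 and OSBPL11. They were taken by symbol from a deposited table of 63140 genes, in which each of the 10 had 1 row. All 10 passed the filter on low counts, among 16754 genes tested. RNA was sequenced from HEK293 cells, an established human embryonic kidney line, in 3 cultures given dimethyl sulfoxide (DMSO) and 3 given GSK-A1. Per the labels' protocols the cells were confluent when treated, the dose was 100 nM and the exposure lasted 24 h. The labels name no genetic change in either group, and both come from 1 cell line. The series has a single dose and a single time.

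Oxysterol-binding proteins share a lipid-binding domain that holds 1 sterol, phosphatidylserine or phosphatidylinositol 4-phosphate (PI4P) molecule at a time. At contacts between the endoplasmic reticulum (ER) and another membrane, many of them carry PI4P to the ER and take sterol or phosphatidylserine the other way. PI4P made by lipid kinases on the receiving membrane and its removal at the ER by the phosphatase SAC1 keep that exchange moving. GSK-A1 inhibits phosphatidylinositol 4-kinase alpha, the product of PI4KA, which supplies PI4P at the plasma membrane. The comparison asks how the transcripts of the exchangers stood after 24 h with GSK-A1. RNA counts do not show the PI4P level in these cultures.

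Library totals ranged from 33040178 to 47777233 counts, of which the 10 genes took between 0.0533% and 0.0587%. In the fit over all genes, 22.9% of the genes tested were called, that is, had a Benjamini-Hochberg adjusted p under 0.05 in edgeR's quasi-likelihood test. PI4KA averaged 185 ± 5 CPM (counts scaled to library size with TMM factors) in the DMSO cultures and 179 ± 7 in the GSK-A1 cultures (SD, n = 3), which cannot check the labels, since the compound acts on the protein. GSK-A1 replicate 2 stood apart from the other libraries in how its counts followed GC content. Against a gene's mean over the 6 libraries, log2 CPM moved by -0.094 per 10 percentage points of transcript GC content in that library. The slope lay between 0.023 and 0.034 in the DMSO libraries and at -0.00081 and 0.0096 in GSK-A1 replicates 1 and 3. Of 8 HEK293 markers 6 were tested, led by VIM and NEFL, while NEFM and INA stood near 0. Their sum was 2037 to 2110 CPM with DMSO and 2184 to 2375 with GSK-A1. The markers did not all move with this sum. Of the 6 tested, VIM and KRT8 were called higher, PAX2 was called lower and 3 were not called. PAX2 averaged 2.71 ± 0.08 CPM in the DMSO cultures and 2.00 ± 0.06 in the GSK-A1 cultures (SD, n = 3; edgeR adjusted p = 0.0177). Of 6 fibroblast markers, COL1A2 had no count in any library and DCN, LUM and PDGFRB averaged under 0.25 CPM, and the sum was 16.7 to 17.8 CPM with DMSO and 10.3 to 12.7 CPM with GSK-A1, mostly through COL3A1. The 6 immune and endothelial markers summed to at most 0.987 CPM. The part of these marker levels in the values below was not tested.

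The family changed little. The 10 log2 fold changes (GSK-A1 minus DMSO) lay between -0.18 and 0.15, and no 95% interval reached beyond -0.31 or 0.27. OSBP and OSBPL8 rose and OSBPL5 fell, so 3 of 10 members were called, beside 22.9% of all genes tested. Called higher were 2 members, beside 12% of all genes, and called lower was 1, beside 10.9%. With upper-quartile scaling, 0 members were called higher and 2 lower, and 33.3% of all calls were higher, against 52.3% in the reported fit. The 3 calls became 0 when DMSO replicate 2 was left out (13.2% of all genes called), when DMSO replicate 3 was left out (12.7%) and when GSK-A1 replicate 1 was left out (15.9%). Without DMSO replicate 1 there was 1 call, beside 12.9% of all genes. The median log2 fold change of the members was 0.04, beside -0.01 over all genes tested, and it turned to -0.0022 when the GC trend of each library was removed. It was 0.0025 under upper-quartile factors, 0.015 when GSK-A1 replicate 2 was left out and 0.070 when it was replicate 3. The ranges of the groups did not overlap for 7 members, 4 higher and 3 lower with GSK-A1. Such separation was seen in 40.5% of all genes tested, 20.2% higher and 20.4% lower. In these bulk libraries, a change in the number of cells that hold a transcript and a change in its level per cell cannot be told apart.

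**Figure D1:**
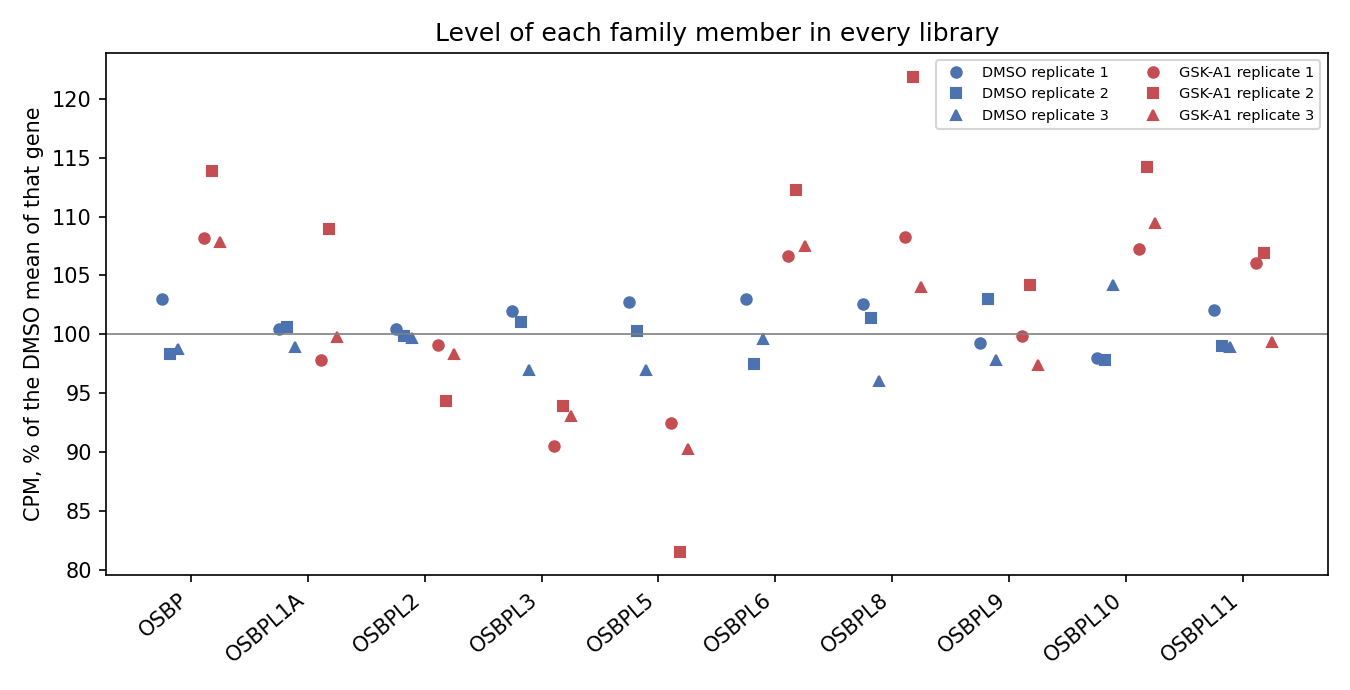
Level of each member in each of the 6 libraries, in CPM as a percentage of that gene's DMSO mean (blue, DMSO; red, GSK-A1; marker shape, replicate). OSBPL8 in GSK-A1 replicate 2 lies highest and OSBPL5 in the same library lies lowest.

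OSBP (ENSG00000110048) is the founding member, which swaps cholesterol for PI4P between the ER and the trans-Golgi network. The gene lies on the reverse strand at chr11:59574398-59616144 (GENCODE 29, GRCh38). DMSO cultures gave 74.1, 70.7 and 71.0 CPM and GSK-A1 cultures 77.9, 82.0 and 77.6 CPM, here and below in the order of replicates 1 to 3. Every GSK-A1 library stood above every DMSO library, with replicate 2 the highest. The log2 fold change was 0.14 (SE 0.04, adjusted p = 0.0258 in edgeR), a rise of 9.90%. Of the called members OSBP kept its call most often, in 11 of 15 alternative analyses. It was not called under upper-quartile factors (0.095, edgeR adjusted p = 0.0905) or when DMSO replicate 2 or 3 or GSK-A1 replicate 1 was left out, with adjusted p-values of 0.122, 0.114 and 0.0508 in edgeR. After removal of the GC trend it stayed at 0.14 (edgeR adjusted p = 0.00578).

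OSBPL8 and OSBPL5 encode the ER-anchored exchangers ORP8 and ORP5, which bring phosphatidylserine to the plasma membrane in return for PI4P, and their transcripts moved in opposite directions. OSBPL8 (ENSG00000091039; chr12:76351797-76559809, reverse strand) had 108, 107 and 101 CPM in the DMSO cultures. The GSK-A1 cultures held 114, 129 and 110 CPM. The groups did not overlap, and GSK-A1 replicate 2 lay well above the other GSK-A1 libraries. Its log2 fold change was 0.15 (SE 0.05, adjusted p = 0.0450 in edgeR). Without GSK-A1 replicate 2 the log2 fold change was 0.089 (edgeR adjusted p = 0.0342), and with the GC trend removed it was 0.059 and not called (edgeR adjusted p = 0.206). It was also not called without any 1 of the DMSO libraries or GSK-A1 replicate 1, with adjusted p-values between 0.0642 and 0.185 in edgeR. OSBPL8 had the lowest GC content among the 10 longest transcripts, 35.5%.

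OSBPL5 (ENSG00000021762; chr11:3087116-3166739, reverse strand) had 19.4, 18.9 and 18.3 CPM in the DMSO cultures. The GSK-A1 cultures held 17.5, 15.4 and 17.1 CPM. All GSK-A1 libraries were below all DMSO libraries, and replicate 2 was the lowest. The log2 fold change was -0.18 (SE 0.06, adjusted p = 0.0436 in edgeR). OSBPL5 had the highest GC content of the 10, 63.6%. With the GC trend removed its log2 fold change was -0.11 and it was not called (edgeR adjusted p = 0.135), nor was it called in a fit that left out any 1 library (edgeR adjusted p between 0.0563 and 0.156). OSBPL8 and OSBPL5 each kept their call in 6 of the 15 alternative analyses.

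**Figure D2:**
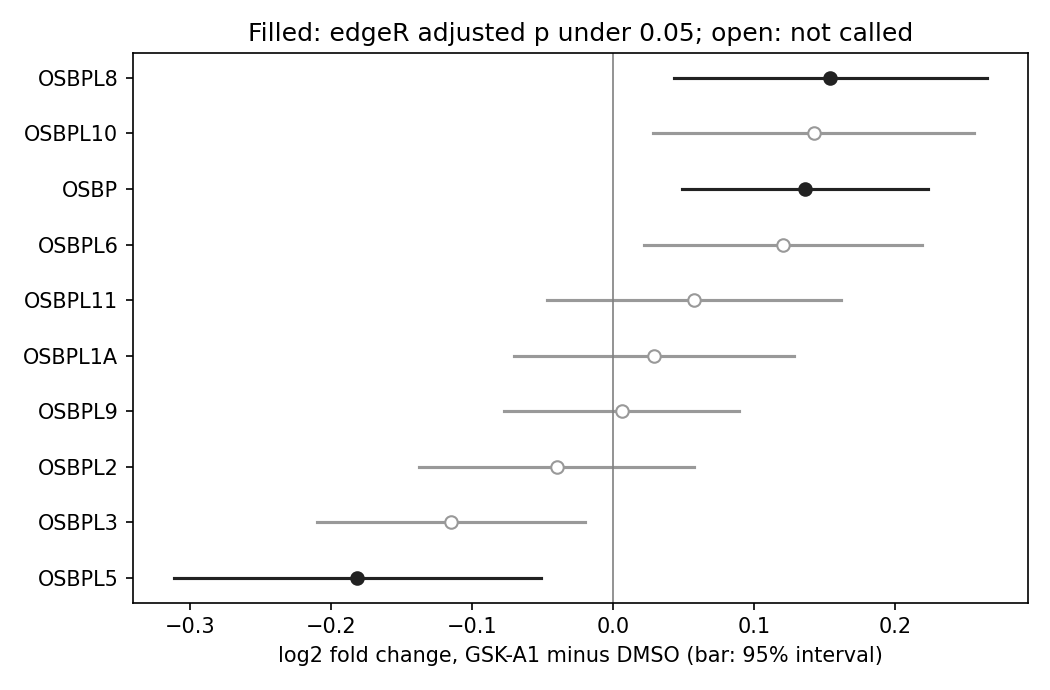
Log2 fold change (GSK-A1 minus DMSO) of the 10 members with its 95% interval, filled where the edgeR adjusted p was under 0.05. OSBPL8 and OSBP are filled above 0, OSBPL5 is filled below 0, and the other 7 are open.

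The promoters of these 3 genes are shown because their transcripts were called, and those of OSBPL1A and OSBPL10 because each holds a motif also found at OSBPL8. The sequences are the 250 bases before RefSeq start sites (GRCh38.p14), which cover all 10 members in 16 windows. All those printed lie on the reverse strand and read 5′ to 3′ towards the start. Capitals mark matches, on either strand, to 6 motifs: TGACTCA (AP-1), GCGTGGGCG and GCGGGGGCG (EGR factors), CCGGAAGT (ETS factors), TCACNCCAC (SREBP) and CACGTG (an E-box). No matches overlapped in the printed sequences.
OSBP, chr11:59615775-59616024: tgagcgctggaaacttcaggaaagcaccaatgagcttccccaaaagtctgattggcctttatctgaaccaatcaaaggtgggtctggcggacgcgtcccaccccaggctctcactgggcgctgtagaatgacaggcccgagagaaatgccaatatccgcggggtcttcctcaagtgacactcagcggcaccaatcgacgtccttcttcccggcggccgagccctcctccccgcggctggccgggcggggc
OSBPL5, chr11:3165311-3165560: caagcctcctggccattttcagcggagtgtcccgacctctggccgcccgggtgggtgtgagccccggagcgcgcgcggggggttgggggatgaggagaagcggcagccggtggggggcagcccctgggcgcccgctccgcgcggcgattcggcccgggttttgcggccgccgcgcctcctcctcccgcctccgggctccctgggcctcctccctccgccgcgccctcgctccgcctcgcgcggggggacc
OSBPL8, outer start, chr12:76559772-76560021: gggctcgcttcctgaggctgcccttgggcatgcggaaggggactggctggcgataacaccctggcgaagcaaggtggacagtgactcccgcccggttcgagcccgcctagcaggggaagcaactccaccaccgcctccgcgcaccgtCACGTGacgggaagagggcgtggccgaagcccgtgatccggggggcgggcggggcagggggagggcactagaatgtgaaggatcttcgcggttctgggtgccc
OSBPL8, inner start, chr12:76423286-76423535: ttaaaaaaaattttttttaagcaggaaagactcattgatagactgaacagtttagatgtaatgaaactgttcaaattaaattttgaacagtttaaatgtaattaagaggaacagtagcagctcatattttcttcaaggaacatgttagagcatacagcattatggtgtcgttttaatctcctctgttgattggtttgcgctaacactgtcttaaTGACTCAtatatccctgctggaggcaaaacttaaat
OSBPL1A, outermost start, chr18:24397825-24398074: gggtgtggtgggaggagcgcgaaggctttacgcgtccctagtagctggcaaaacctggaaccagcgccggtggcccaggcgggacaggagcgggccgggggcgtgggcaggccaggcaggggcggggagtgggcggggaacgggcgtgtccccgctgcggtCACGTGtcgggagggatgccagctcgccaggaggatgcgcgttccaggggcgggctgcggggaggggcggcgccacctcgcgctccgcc
OSBPL10, chr3:31981263-31981512: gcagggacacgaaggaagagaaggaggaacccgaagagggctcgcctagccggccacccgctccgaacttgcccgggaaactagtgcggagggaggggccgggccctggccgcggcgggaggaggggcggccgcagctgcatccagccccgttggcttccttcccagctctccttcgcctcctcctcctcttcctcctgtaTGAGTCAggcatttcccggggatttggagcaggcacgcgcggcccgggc

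None of the 6 motifs occurred in the OSBP or OSBPL5 window. OSBPL8 held CACGTG 103 bases before its outer start and TGACTCA 36 bases before its inner start. OSBPL1A held CACGTG 89 bases before its outermost start. OSBPL10 held the AP-1 heptamer 49 bases before the start of its only window, on the other strand. That window lies inside the span of OSBPL10 in GENCODE 29 (chr3:31657890-32077580, reverse strand), not at its outer end. Over all 35116 windows of this length, 4.20% held TGACTCA and 6.34% held CACGTG, beside 2 of the 16 windows of the family for each motif. GCGTGGGCG occurred in 1 of the 16, the window of OSBPL2, and in 0.72% of all windows. GCGGGGGCG, CCGGAAGT and TCACNCCAC occurred in 0 of the 16, beside 4.72%, 3.42% and 0.883% of all windows. The GC content of the printed windows ranged from 32.0% at the inner start of OSBPL8 to 78.4% at OSBPL5. The counts are per gene, so they do not show which start site was used.

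OSBPL10, OSBPL9 and OSBPL11 encode partners: ORP9 carries PI4P between the trans-Golgi network and the ER and pairs with ORP10 or ORP11. OSBPL10 (ENSG00000144645) had 21.7, 21.7 and 23.1 CPM in the DMSO cultures and 23.7, 25.3 and 24.2 CPM in the GSK-A1 cultures. The groups did not overlap, yet the change did not pass the threshold, at a log2 fold change of 0.14 (SE 0.05, adjusted p = 0.0673 in edgeR), nor did it in any of the 15 alternative analyses. OSBPL11 (ENSG00000144909) ranged from 30.5 to 31.5 CPM with DMSO and from 30.7 to 33.0 CPM with GSK-A1, so the groups overlapped. OSBPL9 (ENSG00000117859), the most abundant member, ranged from 123 to 129 CPM with DMSO and from 122 to 131 CPM with GSK-A1. Its log2 fold change was 0.0063 with a 95% interval from -0.077 to 0.090, and its sign turned under upper-quartile factors, library totals only and removal of the GC trend, among other settings.

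OSBPL3 and OSBPL6 encode the close relatives ORP3 and ORP6, which act at contacts of the ER with the plasma membrane, ORP3 as a partner of the small GTPase R-Ras. OSBPL3 (ENSG00000070882) had 43.5, 43.1 and 41.4 CPM in the DMSO cultures and 38.6, 40.1 and 39.7 CPM in the GSK-A1 cultures. The GSK-A1 libraries were all lower, and replicate 2 was here not the extreme one. The log2 fold change of -0.11 (SE 0.04, adjusted p = 0.0764 in edgeR) missed the threshold. OSBPL3 was called lower in 4 alternative analyses, among them the fit without GSK-A1 replicate 2 (-0.12, edgeR adjusted p = 0.0196) and the fit with the GC trend removed (-0.15, adjusted p = 0.00736 in edgeR). OSBPL6 (ENSG00000079156) had 37.6, 35.6 and 36.3 CPM in the DMSO cultures and 38.9, 41.0 and 39.2 CPM in the GSK-A1 cultures. Its groups did not overlap either, at a log2 fold change of 0.12 (SE 0.05, adjusted p = 0.0729 in edgeR), and it was called in none of the alternative analyses. With the GC trend removed, the log2 fold change of OSBPL6 was 0.062 (edgeR adjusted p = 0.272).

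OSBPL1A encodes ORP1, whose long form senses cholesterol on late endosomes and binds RAB7, and OSBPL2 encodes ORP2, which carries cholesterol to the plasma membrane. OSBPL1A (ENSG00000141447) ranged from 52.4 to 53.3 CPM with DMSO and from 51.8 to 57.7 CPM with GSK-A1. Its log2 fold change of 0.03 (SE 0.05, adjusted p = 0.697 in edgeR) turned to -0.012 with upper-quartile scaling, to -0.0081 once the GC trend was removed and to -0.015 without GSK-A1 replicate 2, the library at 57.7 CPM. OSBPL2 (ENSG00000130703) ranged from 34.8 to 35.1 CPM with DMSO and from 32.9 to 34.6 CPM with GSK-A1. These ranges do not overlap, but the log2 fold change was only -0.04 (SE 0.05, adjusted p = 0.574 in edgeR). Long and short forms of a gene were counted together.

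**Figure D3:**
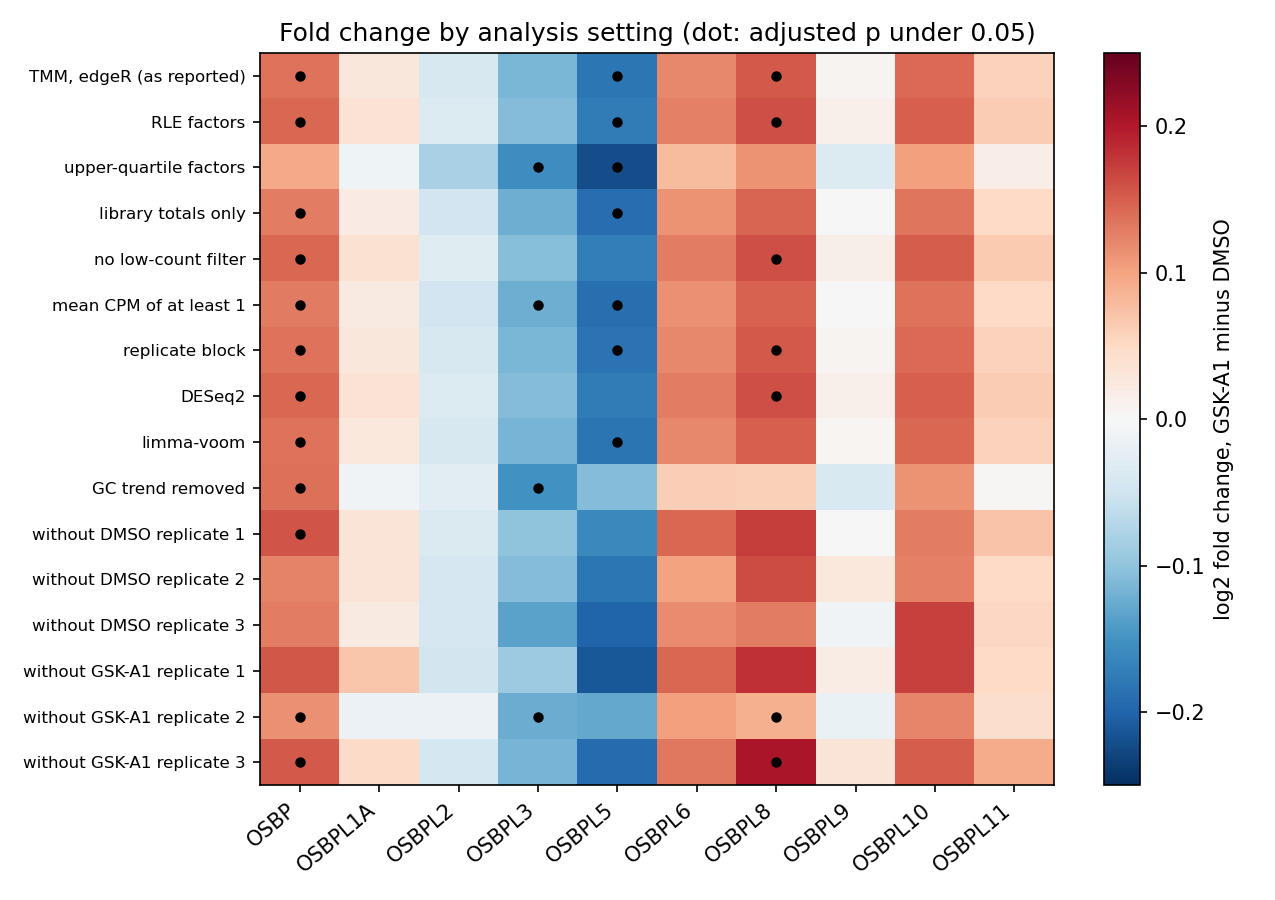
Log2 fold change of each member (columns, colour scale from -0.25 to 0.25) under the reported fit and 15 alternatives (rows), with a dot where the adjusted p was under 0.05. OSBP holds 12 dots, counting the reported fit, OSBPL8 and OSBPL5 hold 7 each, OSBPL3 holds 4 and the other members none.

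Levels of different genes were compared as CPM per kilobase of the longest transcript in GENCODE 29. OSBPL9 led with 27.8 ± 0.7 with DMSO (SD, n = 3), 1.90 times the level of OSBPL8 at 14.6 ± 0.5. OSBP followed at 14.2 ± 0.4, which overlapped with OSBPL8 across the 6 libraries, and OSBPL1A stood at 12.6 ± 0.1. OSBPL2 at 7.48 ± 0.03 and OSBPL11 at 7.36 ± 0.13 overlapped as well. Below them came OSBPL3 at 6.31 ± 0.17, OSBPL5 at 4.86 ± 0.14, OSBPL6 at 3.47 ± 0.10 and OSBPL10 at 2.87 ± 0.10, each range clear of the next. With GSK-A1 the order was the same except that OSBPL11 (7.66 ± 0.30) and OSBPL2 (7.27 ± 0.19) changed places.

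**Figure D4:**
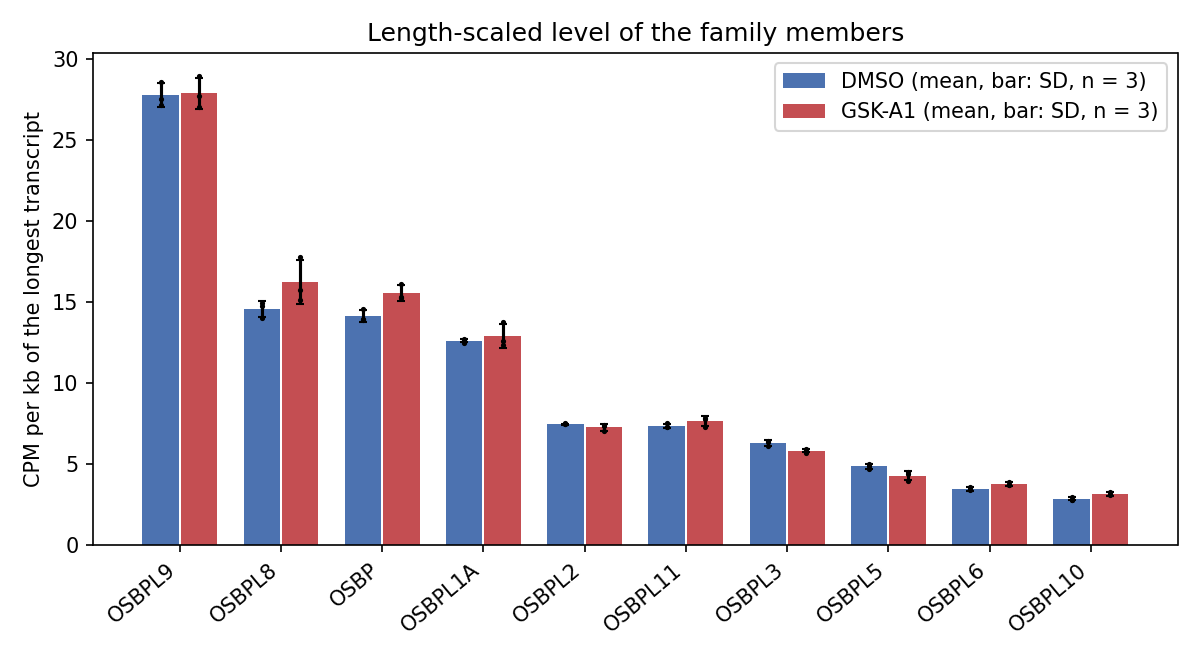
Mean level of each member in CPM per kilobase with DMSO and with GSK-A1 (bars; error bars, SD over 3 libraries; points, libraries). OSBPL9 is the highest in both groups, near 28, and OSBPL10 the lowest, near 3.

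The summed length-scaled level of the family was 99.6 to 102.6 with DMSO and 101.8 to 108.5 with GSK-A1, so the groups overlapped. As shares of that sum, OSBPL9 took 27.4% ± 0.6 with DMSO and 26.7% ± 0.1 with GSK-A1. The share of OSBPL8 went from 14.4% ± 0.3 to 15.5% ± 0.8 and that of OSBP from 13.95% ± 0.30 to 14.9% ± 0.1. The share of OSBPL5 went from 4.79% ± 0.07 to 4.10% ± 0.39 and that of OSBPL3 from 6.22% ± 0.07 to 5.59% ± 0.16 (all SD, n = 3). The share of OSBPL8 differed by 1.14 percentage points, by 0.715 when GSK-A1 replicate 2 was left out and by 1.45 when it was replicate 3. The share of OSBPL9 differed by -0.690 percentage points, and by -0.383 without DMSO replicate 2. These shares are a description without a test.

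Around the exchangers, genes of 7 short lists were read in the same fit. Of the family outside the 10 members, OSBP2 (ENSG00000184792), the closest relative of OSBP, was called lower and OSBPL7, a relative of OSBPL3 and OSBPL6, was not called. OSBP2 had 6.47, 7.43 and 7.48 CPM in the DMSO cultures and 5.64, 5.36 and 5.46 CPM in the GSK-A1 cultures. The groups were clearly apart, at a log2 fold change of -0.37 (SE 0.09, adjusted p = 0.00722 in edgeR). This fall was larger than any in the 10 members and was called in all 15 alternative analyses.

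Among 9 other genes for sterol and sphingolipid carriers and for the tether STARD3NL, 3 were called higher and 0 lower in edgeR, beside 12% and 10.9% of all genes, and DESeq2 and limma-voom gave the same counts. At an unadjusted p under 0.05 there were 4 higher and 1 lower of the 9, beside 35.8% of all genes in either direction. NPC1, the late endosomal cholesterol exporter, rose most. It had 54.5, 49.8 and 50.9 CPM in the DMSO cultures and 65.5, 64.9 and 66.5 CPM in the GSK-A1 cultures. GSK-A1 replicate 2 lay among its group here, and the log2 fold change of 0.34 (SE 0.04, adjusted p = 6.47e-05 in edgeR) was called in all 15 alternative analyses. RMC1, on the other strand, shared 5.98% of the exonic bases of NPC1, and the strand setting of the counting is not given in the sources used here. STARD3NL, a late endosomal tether to the ER, rose by 0.16 (SE 0.05, adjusted p = 0.0192 in edgeR), and PLEKHA8, the Golgi glycolipid carrier FAPP2, by 0.13 (SE 0.04, adjusted p = 0.0392 in edgeR). STARD3NL lost its call under upper-quartile factors and without any 1 DMSO library or GSK-A1 replicate 1, and PLEKHA8 lost it in 7 alternatives, with the GC trend removed among them (0.092, edgeR adjusted p = 0.0529).

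The enzymes that make and remove PI4P held no called gene: 0 of 5 (PI4KA, PI4KB, PI4K2A, PI4K2B and SACM1L, which encodes SAC1) passed in edgeR, beside 22.9% of all genes, and 0 had an unadjusted p under 0.05, beside 35.8%. DESeq2 and limma-voom likewise called 0. With 5 genes, these counts do not set the enzymes apart from other genes. Their log2 fold changes ranged from -0.09 to 0.14, and no 95% interval reached beyond -0.19 or 0.29. Same-strand neighbours shared 28.0% of the exonic bases of PI4K2A and 36.6% of those of PI4K2B, and the effect of this overlap on their counts was not tested. PTDSS1 and PTDSS2, the phosphatidylserine synthases, were not called, with log2 fold changes of 0.014 and 0.038. Of the PI4P 5-kinases, which turn PI4P into phosphatidylinositol 4,5-bisphosphate, PIP5K1A rose by 0.11 (SE 0.04, adjusted p = 0.0430 in edgeR) and PIP5K1C changed by -0.14 (SE 0.05, adjusted p = 0.0330 in edgeR). PIP5K1C kept its call in 7 of 15 alternative analyses. With the GC trend removed it stood at -0.067 and was not called (edgeR adjusted p = 0.210), nor was it in DESeq2 (adjusted p = 0.0705), with no filter on low counts (edgeR adjusted p = 0.0736) or without any 1 library other than GSK-A1 replicate 2 (edgeR adjusted p between 0.0557 and 0.131). PIP5K1A was not called under upper-quartile factors (0.067) or library totals only, or without any 1 DMSO library or GSK-A1 replicate 1.

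VAPA, VAPB, MOSPD1, MOSPD2 and MOSPD3 encode ER proteins whose shared domain docks FFAT and related motifs, which many oxysterol-binding proteins carry. MOSPD3 was called lower (log2 fold change -0.29, SE 0.10, adjusted p = 0.0428 in edgeR) and the other 4 were not called. MOSPD3 lost its call in 8 alternatives, with an edgeR adjusted p of up to 0.206 without DMSO replicate 2. VAPA averaged 82.2 ± 1.2 CPM in the DMSO cultures and 87.6 ± 1.4 in the GSK-A1 cultures (SD, n = 3; edgeR adjusted p = 0.0941), and VAPB at 87.8 ± 0.6 and 84.2 ± 4.2 CPM (edgeR adjusted p = 0.334). Of the small GTPase partners, RRAS, which encodes the R-Ras bound by ORP3, rose from 8.40 ± 0.51 to 10.3 ± 0.6 CPM (log2 fold change 0.29, SE 0.08, adjusted p = 0.0121 in edgeR). It lost its call when DMSO replicate 1 or 3 or GSK-A1 replicate 1 was left out, with adjusted p-values of up to 0.0728 in edgeR. RAB7A and RILP were not called.

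**Figure D5:**
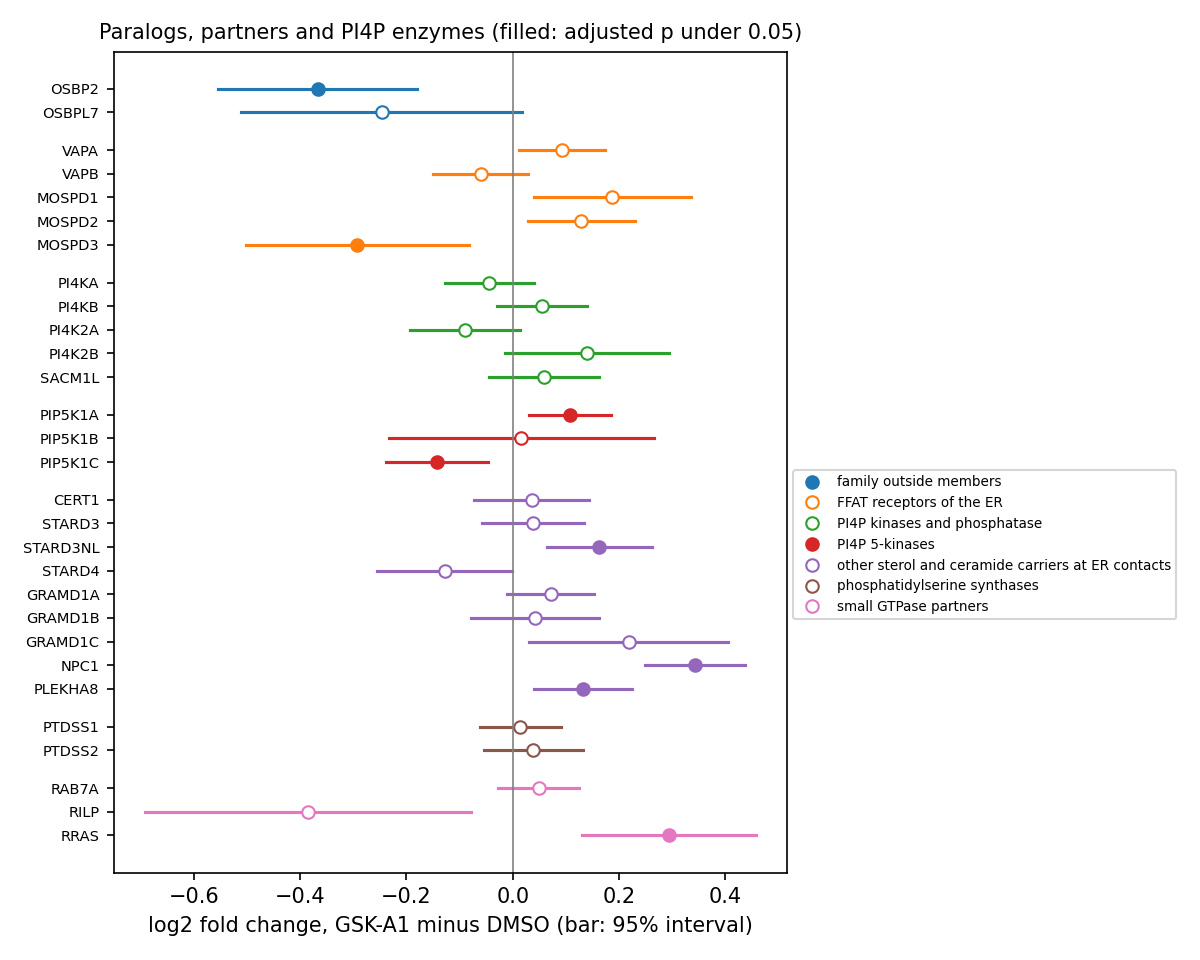
Log2 fold change (GSK-A1 minus DMSO) with its 95% interval for 29 genes of the 7 lists, filled where the edgeR adjusted p was under 0.05. NPC1 lies farthest to the right, and OSBP2 and RILP lie farthest to the left.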

How the data were processed

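RNA was measured in 6 HEK293 libraries, 3 per group, grouped by their labels. The authors deposited raw whole-number counts per gene, with 1 column per library and no normalization. The submitters' processing notes name cutadapt 5.1, STAR 2.7.11b, featureCounts, Subread 2.1.1, DESeq2 1.38.0 and the build GRCh38.p13. The annotation release and strand setting are not given in the sources used here. Per the labels' protocols, libraries were made with a stranded kit, and all carry the same lane labels, so lanes did not differ between groups.

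Genes were kept by filterByExpr (smallest count 10, smallest total 15). Library factors were TMM, and edgeR 4.0.16 in R 4.3.3 was run with robust quasi-likelihood F tests and Benjamini-Hochberg adjustment over all 16754 genes tested. Standard errors are the log2 coefficient over the square root of F. CPM are TMM-scaled. The labels call the samples biological replicates. Lengths, GC content and overlaps came from GENCODE 29, and promoters from RefSeq. At most 2.87% of the 50-base stretches of a member's longest transcript (OSBPL1A) occurred in another gene. The alternatives were other library factors and filters, a replicate block, DESeq2 1.42.0, limma-voom (limma 3.58.1), removal of each library's loess trend on GC content (span 0.3), a stricter threshold and fits without 1 library each. The code was tested on simulated counts.

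Every member is named. Of the 7 other lists, genes at an adjusted p under 0.05 are named, up to 5 per list, with counts for the rest. The members and lists were chosen with earlier results of these data known. Intervals for fold changes come from replicates, and totals of 33040178 to 47777233 counts gave each member at least 526 counts per library.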

Additional observations from a re-analysis of the deposited data

How the results depend on the processing

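The number of members called was 2 or 3 under other factors, filters and tools. Over all genes, the share called in these settings ran from 12.0% (no low-count filter) to 27.6% (mean CPM of at least 1). Under upper-quartile factors 0 were higher and 2 lower, and 33.3% of all calls were higher, beside 52.3% under TMM. That scaling moved the median of all genes to -0.051. At an adjusted p under 0.01 edgeR called 0 members and 1871 of 16754 genes. At an unadjusted p under 0.05 it had 6 members and 6001 genes (35.8%). In fits without 1 library each, 0 to 3 members and 2163 to 4890 genes were called, and the share of all genes ran from 12.7% to 28.1%. No member was called when DMSO replicate 2 or 3 or GSK-A1 replicate 1 was left out. Only OSBP was called without DMSO replicate 1. The members' median log2 fold change of 0.04 was -0.0022 with the GC trend removed, and the cause was not tested. OSBPL9 turned to -0.035 with upper-quartile scaling, to -0.0016 when only library totals were used, to -0.0010 among genes with a mean CPM of at least 1 and to -0.038 once the GC trend was removed. In fits without 1 library it ranged from -0.016 (GSK-A1 replicate 2 left out) to 0.031 (GSK-A1 replicate 3 left out) and was -0.0083 when DMSO replicate 3 was left out. OSBPL1A turned to -0.012 with upper-quartile scaling and to -0.0081 once the GC trend was removed, and ranged from -0.015 (GSK-A1 replicate 2 left out) to 0.069 (GSK-A1 replicate 1 left out). The other 8 members kept their sign in all 15 alternatives.

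The replicate numbers were not shown to pair the samples. Deviations from the group means of same-numbered libraries correlated across genes by 0.011, 0.019 and 0.032, and 5 of 6 libraries correlated best with their own number. With the replicate block 3 members and 4127 genes (24.6%) were called, and the call of MOSPD3 was lost (edgeR adjusted p = 0.0513). Among the shares of the family, that of OSBPL6 moved beyond its spread with coding length (a difference of 0.284 percentage points, beside 0.191) and that of OSBPL3 with the union of exons (-0.876, beside -0.635), both added after the data were seen. The planned use of the length of the RefSeq protein was not run. The alternatives for genes outside the members were also added then.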

Other observations

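Ratios of counts between related exchangers can be compared from library to library, since library scaling cancels. The counts, here and in the ratios below, were not scaled to transcript length. A ratio therefore does not give the relative level of its genes. Per kilobase, OSBPL6 averaged 3.47 and OSBPL3 6.31 with DMSO, and 3.78 and 5.84 with GSK-A1. The ratio of OSBPL6 to OSBPL3 was 0.864, 0.825 and 0.878 in DMSO replicates 1 to 3 and 1.01, 1.02 and 0.988 in GSK-A1 replicates 1 to 3. The groups did not overlap, and the 3 GSK-A1 libraries lay close together. The difference between the log2 fold changes of OSBPL6 and OSBPL3 was 0.24, and it was 0.21 with the GC trend removed and 0.23 without GSK-A1 replicate 2, although neither gene was called in the reported fit. Their longest transcripts have a GC content of 39.6% and 42.0%. The ratio of OSBP to OSBP2 was 11.5, 9.52 and 9.49 with DMSO and 13.8, 15.3 and 14.2 with GSK-A1. That difference in log2 fold change was 0.50, and 0.45 with the GC trend removed.

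The ratio of OSBPL8 to OSBPL5 was 5.57, 5.64 and 5.53 with DMSO and 6.54, 8.34 and 6.43 with GSK-A1, with replicate 2 far above the rest. Its difference in log2 fold change of 0.34 was 0.17 with the GC trend removed and 0.22 without GSK-A1 replicate 2. The GC content of this pair differs most in the family, 35.5% against 63.6%. The ratio of OSBPL10 to OSBPL11 overlapped between the groups, at 0.717 ± 0.034 in the DMSO cultures and 0.761 ± 0.033 in the GSK-A1 cultures (SD, n = 3). These ratios were chosen after the values were seen and carry no test, and no share over other pairs of genes was computed. The part of GC content in them was not tested.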
